A study of Mus musculus with 4 samples.

Results

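The genes described here are those of the mouse major histocompatibility complex (MHC): 49 genes, read by 83 of the array's probes, whose array gene name starts with H2- or is B2m, Tap1, Tap2, Tapbp, Cd74, Ciita or Nlrc5. The whole array held 37325 genes and 56605 probes. By name, 36 of the 49 genes (59 probes) were taken as class I, with the light chain B2m, the peptide transporter subunits Tap1 and Tap2, the peptide-loading protein Tapbp and the regulator Nlrc5 counted in. Another 12 genes (22 probes) were taken as class II, with the invariant chain Cd74 and the regulator Ciita. The last member, H2-Ke6, lies between MHC genes but encodes a hydroxysteroid dehydrogenase, and was put in neither class. Another 3 probes of an MHC pseudogene now called H2-T-ps carry a different name in the files and were not counted as members.

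RNA of the hippocampus was measured in wild-type (WT) mice and in mice labelled Rp58 hetero-KO, which carry 1 disrupted copy of Rp58, a gene whose current symbol is Zbtb18 and which encodes a zinc finger transcriptional repressor. Mice of both genotypes were studied at 4 months and in old age, which the age label gives as 18 months, the titles as 1.5 years and the descriptions as 12 to 18 months. RNA from 3 samples was pooled in each group, 200 ng of the pool was labelled with Cy3, and each pool was put on 1 array, so that each of the 4 groups is 1 array. The labels give neither the strain nor the sex of the mice, nor the part of Rp58 that was removed, and the groups compared share a 12 h light and 12 h dark cycle.

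MHC class I molecules are made of a membrane-bound heavy chain and beta-2-microglobulin, and show peptides cut from proteins inside the cell to CD8 T cells and natural killer cells. MHC class II molecules are made of an alpha and a beta chain, are guided by the invariant chain to compartments where they are loaded with peptides of engulfed material, and show these to CD4 T cells. In healthy brain, class II is largely a property of macrophages at the borders of the tissue, dendritic cells and some activated microglia, while class I genes are expressed more widely, in blood vessels, microglia and some neurons.

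A level here is a spot's signal divided by the 75th percentile of its array, and a difference is a difference of log2 levels. Levels are listed in the order WT at 4 months, hetero-KO at 4 months, WT at 18 months and hetero-KO at 18 months, and since probes differ in how well they bind, a level is set only against levels of the same probe. The 75th percentile of the signal was between 1714 and 2111, and 77.9% to 81.9% of spots were well above background. Repeat spots of a probe had a median SD of 0.031 to 0.034 on the log2 scale, while the scanner software's error for a difference between arrays had a median of 0.20 over the members. Neither includes the spread between mice, and a pair of single arrays allows no test. The targeted gene Zbtb18 had levels of 17.5, 15.2, 18.9 and 21.4, so that it was lower by 0.20 on the array labelled hetero-KO at 4 months and higher by 0.18 on the array labelled hetero-KO at 18 months. The sources used here do not say whether its probe lies in the removed part, so it may check nothing, and every direction below comes from arrays taken by their labels. Sex-linked genes differed between the pools: Xist, which is expressed from an inactive X chromosome, had levels of 0.164 and 0.231 on the 4-month arrays while the 18-month arrays read it as background, and the Y-linked Eif2s3y, Ddx3y and Uty were well above background on all arrays other than that of hetero-KO at 4 months. The Y-linked Kdm5d was above background on all 4 arrays. Sex makeup of the pools therefore cannot be told apart from genotype at 4 months, nor from age. Markers of neighbouring regions differed too: the summed level of 9 striatum markers was 19.9, 47.3, 20.4 and 21.9, and that of 9 thalamus and habenula markers 25.4, 18.2, 8.80 and 8.53. A marker not well above background on an array adds nothing to such a sum. On the 4 arrays, 9, 9, 7 and 7 of the thalamus and habenula markers were above it.

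Of the class I genes, 29 were well above background on all 4 arrays, 2 on some and 5 on none. The class II genes split into 9 on all 4 arrays and 3 on none. The genes not above background on any array were H2-M10.2, H2-M10.4, H2-M10.5, H2-M10.6 and H2-T18 in class I, and H2-DMb2, H2-Ea-ps and H2-Eb2 in class II. For H2-Eb2, a second probe was above background on the WT array of 18 months, with a level of 0.00984.

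The class I light chain and the classical heavy chains were higher on both 18-month arrays than on both 4-month arrays. B2m, the light chain shared by all class I molecules, was measured by a probe at chr2:121978401-121978460 (mm9, as all probe positions here) and had levels of 7.63, 7.77, 9.22 and 9.76. H2-K1, a classical heavy chain (chr17:34133055-34133114), had levels of 5.07, 4.68, 6.38 and 6.86. H2-D1, the other classical heavy chain found in all common strains (chr17:35403886-35403945), had levels of 1.78, 1.69, 2.11 and 2.38. In each of the 3 genes the 18-month pair did not overlap the 4-month pair, and the array of hetero-KO at 18 months was the highest. As 18 minus 4 months, B2m differed by 0.27 in WT and by 0.33 in hetero-KO, H2-K1 by 0.33 and 0.55, and H2-D1 by 0.24 and 0.49.

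Other class I heavy chains showed the same order by age. H2-L, a heavy chain that some mouse haplotypes lack (chr17:35403191-35403250), had levels of 1.26, 1.24, 1.66 and 1.81. Its probe lies just before that of H2-D1 (chr17:35403886-35403945) on the same strand, so both may read the same gene, which was not tested. H2-Q2, of the non-classical Q region (chr17:35482113-35482172), had levels of 1.53, 1.47, 1.97 and 1.94. H2-Q8 (chr17:35565247-35565306) stood at 0.572, 0.561, 0.768 and 0.794. H2-T23 encodes Qa-1, which presents leader peptides of other class I molecules to inhibitory receptors of natural killer cells. Its probe (chr17:36167338-36167574, across a splice junction by its span) had levels of 1.64, 1.64, 2.09 and 2.22. In these 4 genes, too, both 18-month arrays lay above both 4-month arrays, while the genotypes differed by at most 0.12 at either age. Of all 29 class I members measured on all 4 arrays, 22 (75.9%) had both 18-month arrays above both 4-month arrays, an order found in 32.4% of 27365 genes.

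**Figure D1:**
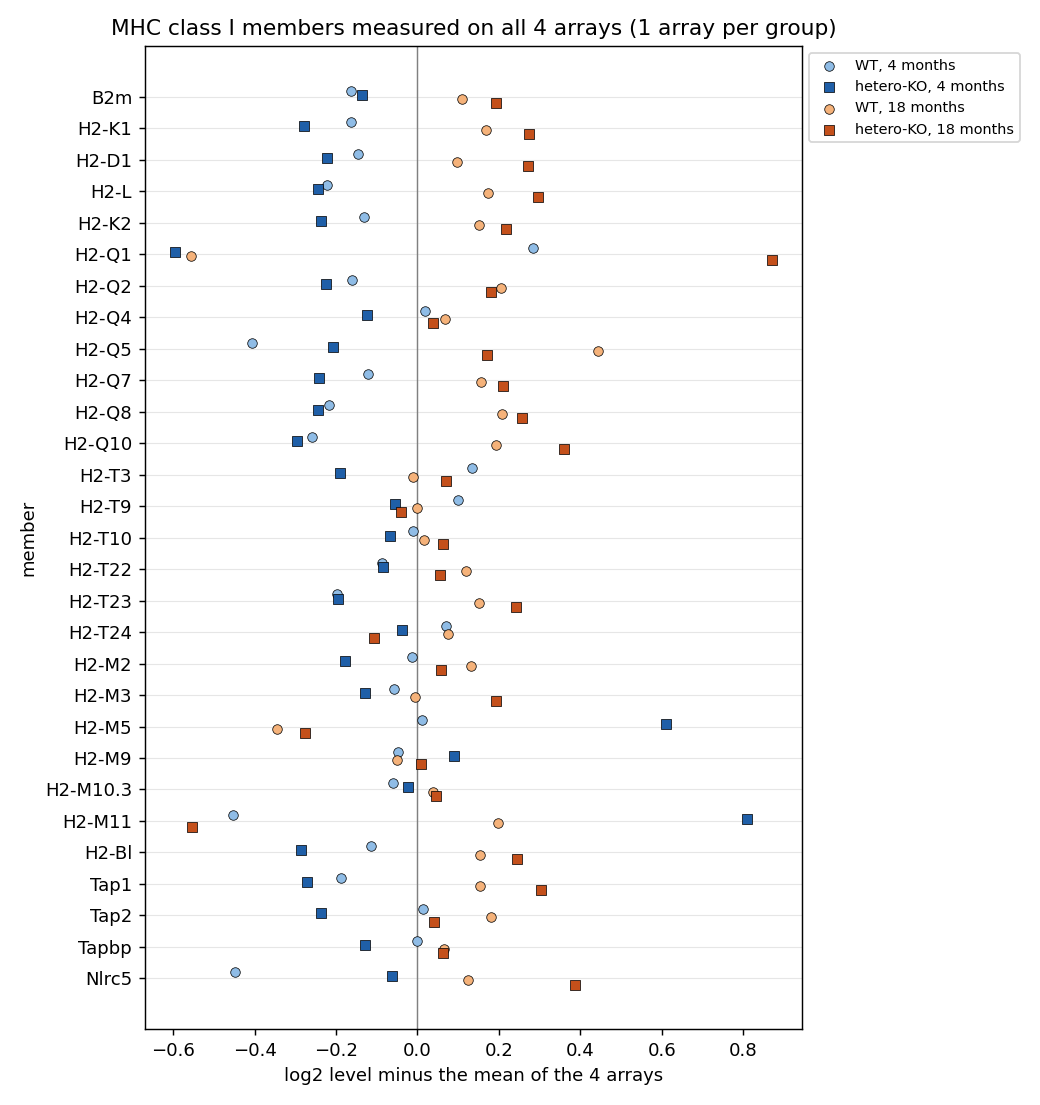
Log2 levels of the 29 class I members on the 4 arrays, each minus the mean of its 4 arrays (horizontal axis, log2 units), with 1 point per array and no replicates. For 22 members both 18-month points (orange) lie to the right of both 4-month points (blue), while H2-Q1 and H2-M11 spread widely and follow neither age nor genotype.

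The age difference over both genotypes was tested with limma in an additive model of genotype and age, which has 1 residual degree of freedom, with Benjamini-Hochberg adjustment over 29071 genes. Of 30 class I members tested, 4 (13.3%) rose and 0 fell, where over all genes 1.46% rose and 0.643% fell. H2-L rose by 0.47 ± 0.06 (SE; limma adjusted p = 0.0485), H2-Q2 by 0.39 ± 0.05 (limma adjusted p = 0.0488), H2-Q8 by 0.46 ± 0.06 (limma adjusted p = 0.0493) and H2-T23 by 0.39 ± 0.05 (limma adjusted p = 0.0497), each on the log2 scale. Just outside the threshold lay B2m, higher by 0.30 ± 0.04 (limma adjusted p = 0.0503), and H2-K1, higher by 0.44 ± 0.07 (limma adjusted p = 0.0539). Counted without adjustment, at p under 0.05, 17 of the 30 (56.7%) were higher and 1 was lower, beside 16.8% and 6.92% of all genes. The calls ended under quantile normalization, without the filter on dim probes, without the variance trend, when probes of a gene were averaged and with age as the only factor (0 members higher in each), and normexp background correction gave 9 higher.

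The probes of the 4 members that rose shared stretches of sequence with probes of other genes, so that transcripts of related genes may be read by more than one of them and their values are uncertain as values of single genes. The probes of H2-L and H2-T23 are shown for this reason, 5′ to 3′, with the longest run they share (31 bases) in capitals. Over 54 aligned bases, 48 were identical.
H2-L: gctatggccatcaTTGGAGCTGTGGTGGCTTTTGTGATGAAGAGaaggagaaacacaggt
H2-T23: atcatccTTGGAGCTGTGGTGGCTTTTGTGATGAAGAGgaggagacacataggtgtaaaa
The H2-L probe also shared a run of 29 bases with the second H2-K1 probe and of 24 bases with the H2-Q8 probe, and the H2-Q2 probe shared 35 bases with a probe of the pseudogene H2-T-ps. The other probe of H2-T23 had levels of 0.0928, 0.0850, 0.0932 and 0.0849 and did not separate the ages. In all, 6 class I members (H2-K2, H2-L, H2-Q2, H2-Q7, H2-Q8 and H2-T23) had a probe sharing at least 19 bases with a probe of another gene, a limit chosen after the sequences were seen. No such run was found for the probes of B2m, H2-D1 and H2-K1 used here. Probes were compared only with other probes of the array and not with transcripts. A probe without such a run may therefore still read related genes. Without those 6, 0 class I members passed the age test by limma, and the median difference with age of the 23 others measured on all 4 arrays was 0.14 in WT and 0.26 in hetero-KO, beside 0.36 and 0.45 for the 6.

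Members of the peptide supply were higher with age as well, and none passed the test by limma. Tap1, a subunit of the transporter that brings peptides into the endoplasmic reticulum (chr17:34334022-34334081), had levels of 0.182, 0.172, 0.230 and 0.255, with no overlap between ages (0.46 ± 0.10 SE, limma adjusted p = 0.0807). Tap2, its partner subunit (chr17:34353116-34353175), had levels of 1.45, 1.22, 1.63 and 1.48. Another Tap2 probe was above background in WT at 4 months alone. Both hetero-KO arrays lay below the WT array of their age, and this was the lowest p of any member for genotype (−0.19 ± 0.06 SE, limma adjusted p = 0.378). Tapbp encodes tapasin, which tethers class I molecules to the transporter (chr17:34066022-34066081), and had levels of 2.26, 2.07, 2.37 and 2.37. Nlrc5, the transactivator of class I genes (chr8:97051105-97051164), had levels of 0.0551, 0.0720, 0.0820 and 0.0984, higher in hetero-KO by 0.39 at 4 months and 0.26 at 18 months. A second Nlrc5 probe differed by −0.09 and −0.36 in the same comparisons, so the direction for genotype depends on the probe.

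The remaining class I genes of the Q, T and M regions differed in both directions. H2-Q4, of the non-classical Q region, had levels of 61.8, 56.0, 64.0 and 62.7, which span less than the scanner's error. H2-Q5, of the same region, had levels of 0.0946, 0.109, 0.170 and 0.141 and at 18 months stood 0.85 higher in WT and 0.38 higher in hetero-KO. H2-Q10, a secreted class I molecule made chiefly by liver, was higher by 0.45 and 0.65 by its brightest probe. Another of its 4 probes was higher by 0.10 and 0.39, and the rest were not above background on any array. For H2-Q7, 1 of 3 probes was higher by 1.11 in hetero-KO at 4 months while the probe used here was lower by 0.12. Genes of the T region were close together, with differences with age of 0.21 in WT and 0.14 in hetero-KO for H2-T22, 0.03 and 0.13 for H2-T10, and −0.10 and 0.01 for H2-T9. H2-M3, which presents formylated peptides of bacteria and mitochondria, was higher by 0.05 and 0.32. Others were nearly flat or differed little with age: H2-M2 by 0.14 in WT and 0.24 in hetero-KO, H2-M9 by −0.00 and −0.08, H2-M10.3 by 0.10 and 0.07, and H2-T24 by 0.00 and −0.07. H2-T3, the thymus leukemia antigen, differed by −0.15 and 0.26 by its brightest probe, while another of its 4 probes was above background in hetero-KO at 18 months alone, at 0.0802. H2-Bl, a class I-like gene, was higher by 0.27 and 0.53, and its other probe was above background at 4 months alone. H2-K2 and H2-Q7 followed the order by age, with levels of 1.43, 1.33, 1.74 and 1.82 and of 1.37, 1.26, 1.65 and 1.72. Some dim genes of the M and Q regions varied widely. H2-M5 had levels of 0.0214, 0.0324, 0.0167 and 0.0175, while a second probe of it had 0.0139, 0.0131, 0.0130 and 0.00866 and was not higher in hetero-KO at 4 months. H2-M1 was above background on all arrays other than that of WT at 18 months, at 0.00987 to 0.0128. H2-M11 had levels of 0.0246, 0.0590, 0.0387 and 0.0230 and H2-Q1 levels of 0.0208, 0.0113, 0.0116 and 0.0312. H2-M10.1 was above background in WT at 4 months alone, with a level of 0.0815, at least 12.1-fold above hetero-KO of that age and at least 10.7-fold above WT at 18 months. Its other probe was not above background on any array, so this rests on 1 of 2 probes. For such a bound the bright array is divided by the dim one, whose value is raised, if it lies lower, to the dimmest reading still well above background there.

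Over the 29 class I members measured on all 4 arrays, the median with age was 0.24 in WT (24 higher) and 0.33 in hetero-KO (25 higher), beside 0.04 in both genotypes for all genes. The share of all genes higher with age was 58.3% in WT and 59.3% in hetero-KO. Between genotypes, hetero-KO minus WT had a median of −0.07 at 4 months (9 higher) and 0.06 at 18 months (19 higher), beside −0.02 and −0.01 for all genes. The share of all genes higher in hetero-KO was 44.3% at 4 months and 47.8% at 18 months. The comparisons share arrays and are not independent of each other. Past a fold of 1.5, between hetero-KO and WT at 4 months, 2 class I members were higher (H2-M11 and H2-M5) and 2 lower (H2-Q1 and H2-M10.1), beside 2.60% and 3.88% of all genes. At 18 months 1 was higher (H2-Q1) and 1 lower (H2-M11), beside 2.95% and 3.50%. Between 18 and 4 months, 2 were higher and 3 lower in WT (3.42% and 3.72% of all genes), and 2 were higher and 2 lower in hetero-KO (5.01% and 3.96%). Past a fold of 2, 1.18% of all genes were higher and 1.24% lower at 4 months, 1.02% and 0.99% at 18 months, 1.27% and 1.34% with age in WT, and 1.84% and 1.68% with age in hetero-KO, and the class I counts there were at most 1 in each direction. By limma with Benjamini-Hochberg adjustment, 0 of the 30 class I and 0 of the 9 class II members passed the genotype test, beside 0.0103% of all genes higher and 0% lower. Without adjustment, 1 class I member was higher and 1 lower at p under 0.05 and 0 class II members were either, beside 5.15% and 6.31% of all genes. Every other setting run for this test gave 0 members too.

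Genes that feed or assist the class I pathway and are not MHC genes were partly higher with age. Of 11 such genes on the array, 1 rose in the limma age test and 0 fell: the immunoproteasome subunit Psmb10 (0.34 ± 0.04 SE, limma adjusted p = 0.0479). Its levels were 6.67, 7.67, 8.68 and 9.48. The subunit Psmb8 stood 0.43 higher with age in WT and 0.57 higher in hetero-KO and did not pass (limma adjusted p = 0.0539), and Psmb9 was higher by 0.22 and 0.63. The chaperones Calr, Canx and Pdia3, which fold class I heavy chains, differed with age by −0.06, 0.13 and −0.09. Of receptors that bind class I molecules, Pirb rose with age (0.29 ± 0.03 SE, limma adjusted p = 0.0454) out of 5 tested, and Lilrb4a stood 0.94 higher in WT and 2.46 higher in hetero-KO without passing (limma adjusted p = 0.0856). The T cell coreceptor Cd8a was above background on 1 array. Among 7 class I-like genes outside the H2 names, 0 passed by limma for age.

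Markers of some cell types, though not of all, were higher with age beside the class I genes. Of 18 microglia markers, all above background on every array, 10 rose in the limma age test, among them Trem2, Tyrobp, Aif1 and C1qb. The median of the list was 0.44 and its summed level 114, 111, 134 and 149. Of 10 hippocampal neuron markers, all were higher over both genotypes, with a median of 0.20 (0.07 in WT and 0.26 in hetero-KO), and 1 rose, the kinase gene Camk2a. All 5 red blood cell genes were higher, with a median of 0.34 and 0 calls by limma. Over both genotypes, 59.3% of all genes were higher. Endothelial markers had a median of −0.20 over both genotypes (7 of 10 lower). The meningeal fibroblast median was −0.10 and the border macrophage median −0.01. The part of these cells in the class I differences was not tested. In bulk tissue, a change in the number of cells of a type and a change of RNA per cell cannot be told apart. Interferon response genes, which share inducers with class I genes, had 0 of 22 tested past the threshold for age by limma and a median difference of 0.16 in WT and −0.03 in hetero-KO. Interferon gamma itself (Ifng) and its target Cxcl9 were not well above background on any array.

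The promoters of B2m, H2-K1 and H2-D1 are shown since these genes were ordered by age together. The stretches run from 150 to 31 bases before the annotated start on the gene's strand, from RefSeq on build GRCm38.p6: chr2:122147537-122147656 (+) for B2m, chr17:34000364-34000483 (−) for H2-K1 and chr17:35262944-35263063 (+) for H2-D1. Capitals mark matches, on either strand, to the core of the interferon-stimulated response element (GAAA and GAAA with any 2 bases between), to CCAAT (the core of the Y box, ATTGG in reverse) and to TGACG (part of the X2 box, a site of CREB-type factors).
B2m: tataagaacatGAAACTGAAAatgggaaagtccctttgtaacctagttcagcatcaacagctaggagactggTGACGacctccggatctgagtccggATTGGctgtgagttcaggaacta
H2-K1: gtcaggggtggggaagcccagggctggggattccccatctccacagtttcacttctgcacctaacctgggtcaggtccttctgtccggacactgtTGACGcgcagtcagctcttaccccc
H2-D1: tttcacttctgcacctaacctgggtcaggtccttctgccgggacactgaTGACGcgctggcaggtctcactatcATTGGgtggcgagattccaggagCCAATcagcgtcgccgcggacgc
All 3 stretches held TGACG on the gene's strand, beginning 78 bases before the start in B2m, 55 in H2-K1 and 101 in H2-D1. The H2-K1 stretch ends ahead of that gene's CCAAT matches, which begin 30 bases (as ATTGG) and 6 bases before the start. From another annotated start of H2-K1, TGACG begins 41 bases before. In the windows from 250 bases before to 50 after the start, TGACG was found in 14 of 26 class I windows (24 genes) and in 20.8% of all 32851 windows. CCAAT was found in 23 of the 26 and in 37.4% of all windows. The interferon-stimulated core was found in 3 of the 26, those of B2m, H2-T22 and H2-T23, and in 3.44% of all. Only exact matches to this core were counted, so a window without one, as in H2-K1 and H2-D1, may hold a variant form. A motif of the NF-kB type, GGG and CC with any 5 bases between, was also searched and found in 12 of the 26 and in 50.8% of all. A match is a description of the sequence alone, and class I genes are related by descent, so their windows are not independent.

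The chains of the class II molecules showed another pattern: they were low in hetero-KO at 4 months and nearer to each other on the other 3 arrays. H2-Ab1, the beta chain of the A molecule (chr17:34406296-34406355), had levels of 0.762, 0.464, 0.724 and 0.868. H2-Aa, its alpha chain (chr17:34421285-34421344), had levels of 0.0514, 0.0337, 0.0447 and 0.0529. H2-Eb1, the beta chain of the E molecule (chr17:34453075-34453134), had levels of 0.625, 0.407, 0.665 and 0.766. Cd74, the invariant chain that escorts class II molecules, had levels of 0.371, 0.243, 0.314 and 0.368. The array of hetero-KO at 4 months was the lowest in all 4 genes, and that of hetero-KO at 18 months the highest in all but Cd74, where WT at 4 months was slightly higher. These 4 genes were picked as a group with their values known.

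At 4 months, hetero-KO was lower than WT by 0.72 for H2-Ab1, 0.61 for H2-Aa, 0.62 for H2-Eb1 and 0.61 for Cd74, while at 18 months it was higher by 0.26, 0.24, 0.20 and 0.23. The difference of the genotype differences, 18 minus 4 months, was 0.98, 0.85, 0.82 and 0.83 in the same order. With 1 array per group it is a value that cannot be tested. The 4 differences at 4 months exceeded the scanner's error of a difference (0.20 to 0.22), and those at 18 months were close to it. Only 5% of all genes were lower by 0.43 or more at 4 months. H2-Ab1 had 4 probes, 2 of them overlapping in sequence, and all 4 gave the same order: hetero-KO was lower by 0.72 to 1.03 at 4 months and higher by 0.03 to 0.26 at 18 months. Within hetero-KO, the 4 probes were higher by 0.77 to 0.92 at 18 months than at 4 months, and within WT they were lower by 0.07 to 0.19. H2-Ea-ps, the alpha chain gene of the E molecule that is a pseudogene in some haplotypes, was not above background on any array.

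**Figure D2:**
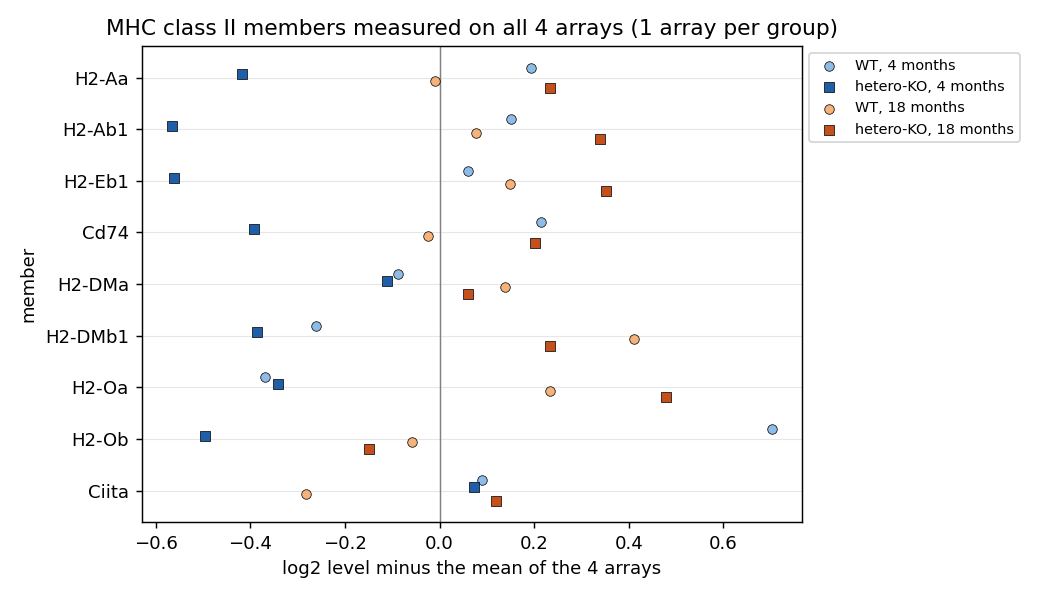
Log2 levels of the 9 class II members on the 4 arrays, each minus the mean of its 4 arrays (horizontal axis, log2 units), with 1 point per array and no replicates. H2-Aa, H2-Ab1, H2-Eb1 and Cd74 are lowest in hetero-KO at 4 months (dark blue squares), as are H2-DMa, H2-DMb1 and H2-Ob. For H2-DMa, H2-DMb1, H2-Oa and H2-Eb1 both 18-month points lie to the right of both 4-month points.

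Of the genes that help load and regulate class II molecules, H2-DMa, H2-DMb1 and H2-Oa in hetero-KO lay within 0.13 of WT at 4 months, H2-Ob did not, and the probes of Ciita disagreed. H2-DMa and H2-DMb1 form the DM molecule, which exchanges the invariant chain fragment for peptide. H2-DMb1 (chr17:34297109-34297168) had levels of 0.268, 0.246, 0.427 and 0.378, with no overlap between ages. It rose by 0.65 ± 0.07 (SE; limma adjusted p = 0.0442), with 0.67 in WT beside 0.62 in hetero-KO, and was the 1 class II member of 9 tested (11.1%) that rose over both genotypes, while 0 fell, beside 1.46% and 0.643% of all genes. H2-DMa (chr17:34274300-34274863) had levels of 0.397, 0.390, 0.464 and 0.440 (0.20 ± 0.07 SE, limma adjusted p = 0.172). The call for H2-DMb1 ended in the same settings that ended those of class I, quantile normalization among them.

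H2-Oa and H2-Ob form the DO molecule, a brake on DM found mostly in B cells and some dendritic cells, and went different ways. H2-Oa (chr17:34232033-34232092) had levels of 0.0450, 0.0459, 0.0684 and 0.0811, higher on both 18-month arrays (0.71 ± 0.13 SE, limma adjusted p = 0.0683). H2-Ob (chr17:34380481-34380849) had levels of 0.0878, 0.0383, 0.0518 and 0.0487, so that WT at 4 months stood apart at the top and hetero-KO was lower by 1.20 there. Its other 2 probes were not above background on any array, and when the probes were averaged its age difference in WT was 0.16 instead of −0.76. Ciita, the master regulator of class II transcription (chr16:10512788-10512847), had levels of 0.0589, 0.0582, 0.0455 and 0.0601 by its brightest probe. Another Ciita probe was lower by 0.64 in hetero-KO at 4 months and yet another was higher by 0.07, so no direction can be given for Ciita.

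Over the 9 class II members measured on all 4 arrays, hetero-KO minus WT had a median of −0.61 at 4 months (8 lower) and 0.23 at 18 months (6 higher). With age, the median was −0.07 in WT (4 higher) and 0.62 in hetero-KO (9 higher). At 4 months 5 of the 9 were lower by a fold of 1.5 or more in hetero-KO and 0 were higher, beside 3.88% and 2.60% of all genes. At 18 months 0 passed that fold in either direction (2.95% of all genes higher, 3.50% lower). In WT, 2 were higher (H2-DMb1 and H2-Oa) and 1 lower (H2-Ob) at 18 months, and in hetero-KO 6 were higher and 0 lower (5.01% and 3.96% of all genes). The low array of hetero-KO at 4 months enters both the genotype difference at 4 months and the age difference in hetero-KO, which are thus not separate observations. Of the 9, 7 (77.8%) were lowest on that array, as were 32% of all genes, and 5 (55.6%) were highest in hetero-KO at 18 months, as were 30.3% of all genes. Both 18-month arrays lay above both 4-month arrays in 4 of the 9 (44.4%), beside 32.4% of all genes. These were H2-DMa, H2-DMb1, H2-Oa and the chain gene H2-Eb1. With normexp background correction 2 rather than 5 members were lower by the fold of 1.5 at 4 months and the median was −0.32; without the filter on dim probes it was −0.18.

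The 18-month columns of the authors' deposited table match none of the 4 scanner files and give other values. With that table the class II median of hetero-KO minus WT at 18 months was −0.47, the median with age in hetero-KO was −0.50, and those of class I with age were 0.019 (WT) and −0.039 (hetero-KO). Its 4-month columns hold the scanner signal up to a constant. With the table, the age differences of H2-L (0.42), H2-Q2 (0.50), H2-Q8 (0.39) and H2-T23 (0.88) kept their direction and passed the limma test, while those of B2m, H2-K1, H2-D1, H2-DMb1 and the 4 class II chain genes turned. Passing was common there: 4605 genes rose and 5298 fell with age, against 425 and 187 in the main setting.

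**Figure D3:**
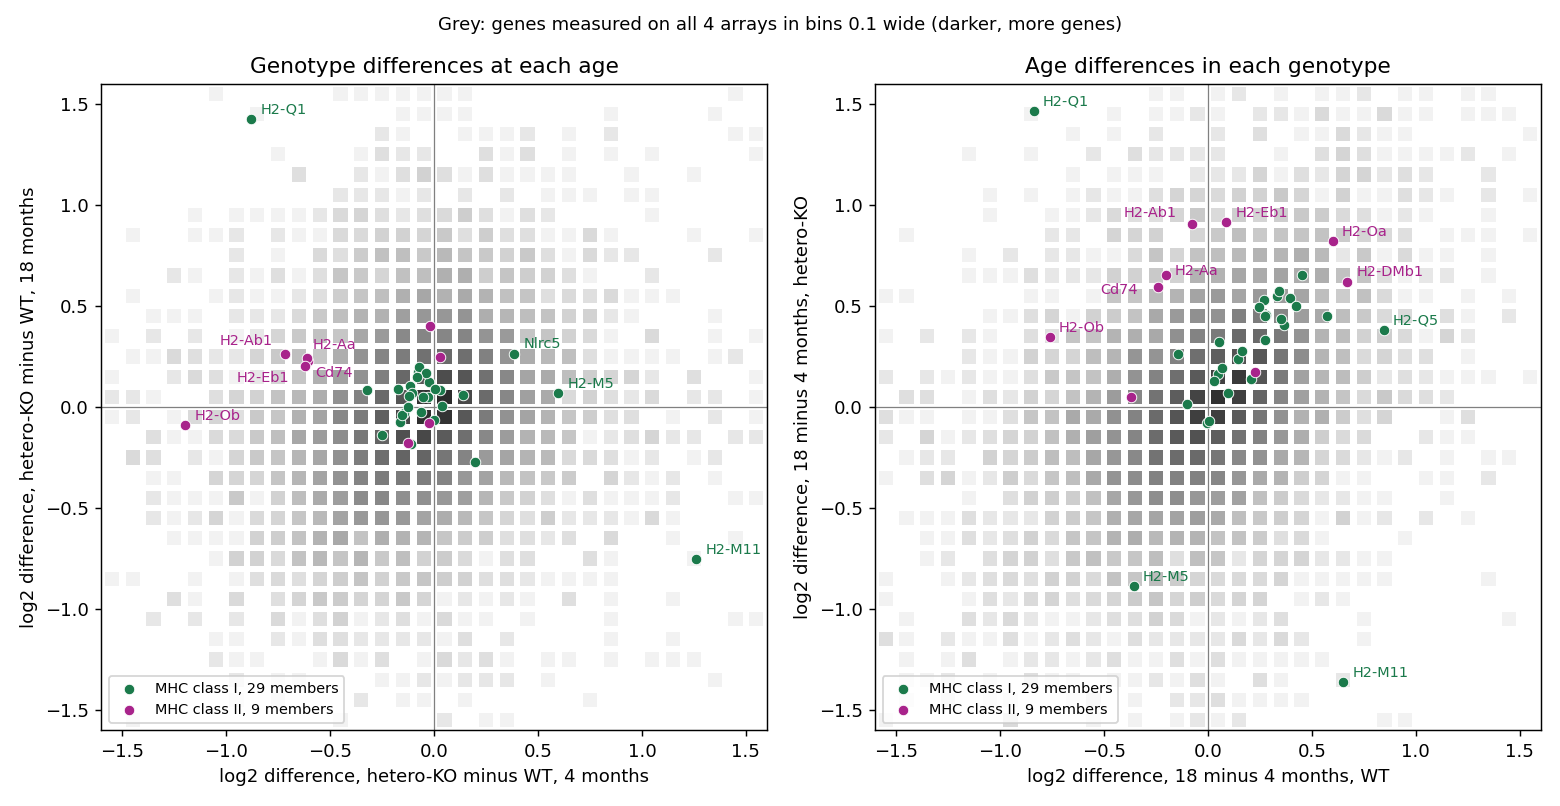
Differences of log2 levels between genotypes at 4 months against those at 18 months (left) and between ages in WT against those in hetero-KO (right), for the 29 class I (green) and 9 class II (purple) members, over all genes measured on all 4 arrays (grey bins). H2-Aa, H2-Ab1, H2-Eb1 and Cd74 lie at −0.61 to −0.72 on the left panel's horizontal axis and at 0.20 to 0.26 on its vertical axis, while most class I members sit in the upper right of the right panel.

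Several marker lists of other cells were lower in hetero-KO at 4 months and higher at 18 months, as the class II chains were. The summed level of 10 border macrophage markers, all above background on every array, was 2.002, 1.684, 1.615 and 2.301, with medians for hetero-KO minus WT of −0.26 at 4 months (6 of 10 lower) and 0.64 at 18 months (9 of 10 higher). Among them, the mannose receptor Mrc1 was lower by 0.97 at 4 months and higher by 0.41 at 18 months, and Ms4a7 was lower by 0.62 and higher by 0.52. Others of the 10 went the other way: 4 were higher at 4 months, by up to 0.37, and 1 was lower at 18 months, by 0.54. The same medians were −0.07 and 0.70 for 5 markers of neutrophils and monocytes, of which S100a8 was lower by 1.83 and higher by 1.29. The summed level of those above background among the 8 markers on the array (7, 5, 5 and 7 of them) was 9.90, 9.25, 9.70 and 12.4. They were −0.24 and 0.29 for 5 red blood cell genes (summed level 43.8, 37.4, 47.7 and 60.7), all lower at 4 months and all higher at 18 months. Endothelial markers had medians of −0.28 and 0.08 (summed level 24.2, 21.1, 21.0 and 24.7) and meningeal fibroblast markers −0.27 and 0.35 (summed level 17.16, 14.76, 11.48 and 14.06). With age in WT, where the class II chains had a median of −0.14, the border macrophage median was −0.39 (9 of 10 lower), the endothelial −0.43 (10 of 10 lower) and the meningeal −0.56 (9 of 10 lower, with the collagen gene Col3a1 called over both genotypes). The summed levels of these 3 lists were thus lowest in WT at 18 months, whereas the class II chains were lowest in hetero-KO at 4 months. The 10 choroid plexus markers were lower in hetero-KO at both ages, all 10 each time, with medians of −0.39 and −0.79 and a summed level of 169, 140, 203 and 159, so they went with the class II chains at 4 months and against them at 18 months. The part of these cells in the class II values was not tested.

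Lists of dendritic cells and lymphocytes had smaller medians between genotypes than the class II chains. Of 10 dendritic cell markers, among them the member Ciita, 8 were above background, with medians of −0.02 and 0.10, and Clec9a and Xcr1, which define cross-presenting dendritic cells, were not above background on any array. Itgax, which encodes the integrin CD11c, rose with age (2.36 ± 0.22 SE, limma adjusted p = 0.0388), with levels of 0.0286, 0.0315, 0.110 and 0.217, the 1 call of that list. The 8 markers did not rise together: over both genotypes their median with age was −0.07, with 3 higher and 5 lower. Cd209a, a marker of another dendritic type, was lower by 0.84 in hetero-KO at 4 months and higher by 0.23 at 18 months. The 5 measured B cell markers had medians of −0.17 and −0.11, and a summed level of 0.167 to 0.194. The 6 T and NK cell markers on all arrays had medians of −0.06 and −0.01. Among them Nkg7, a granule protein of cytotoxic cells, was higher with age by 0.87 in WT and by 1.02 in hetero-KO without passing (limma adjusted p = 0.0687). With age over both genotypes, 3 of the 6 were higher and 3 lower, by up to 0.62, with a median of 0.10. Cd3g was not above background on any array. Microglia markers had medians of 0.05 and 0.23 between genotypes, and 12 of 18 were higher in hetero-KO at 4 months, where the class II chains were lower. The interferon response list was higher in hetero-KO at 4 months for 18 of 21 genes (median 0.20), the opposite direction to the class II chains.

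**Figure D4:**
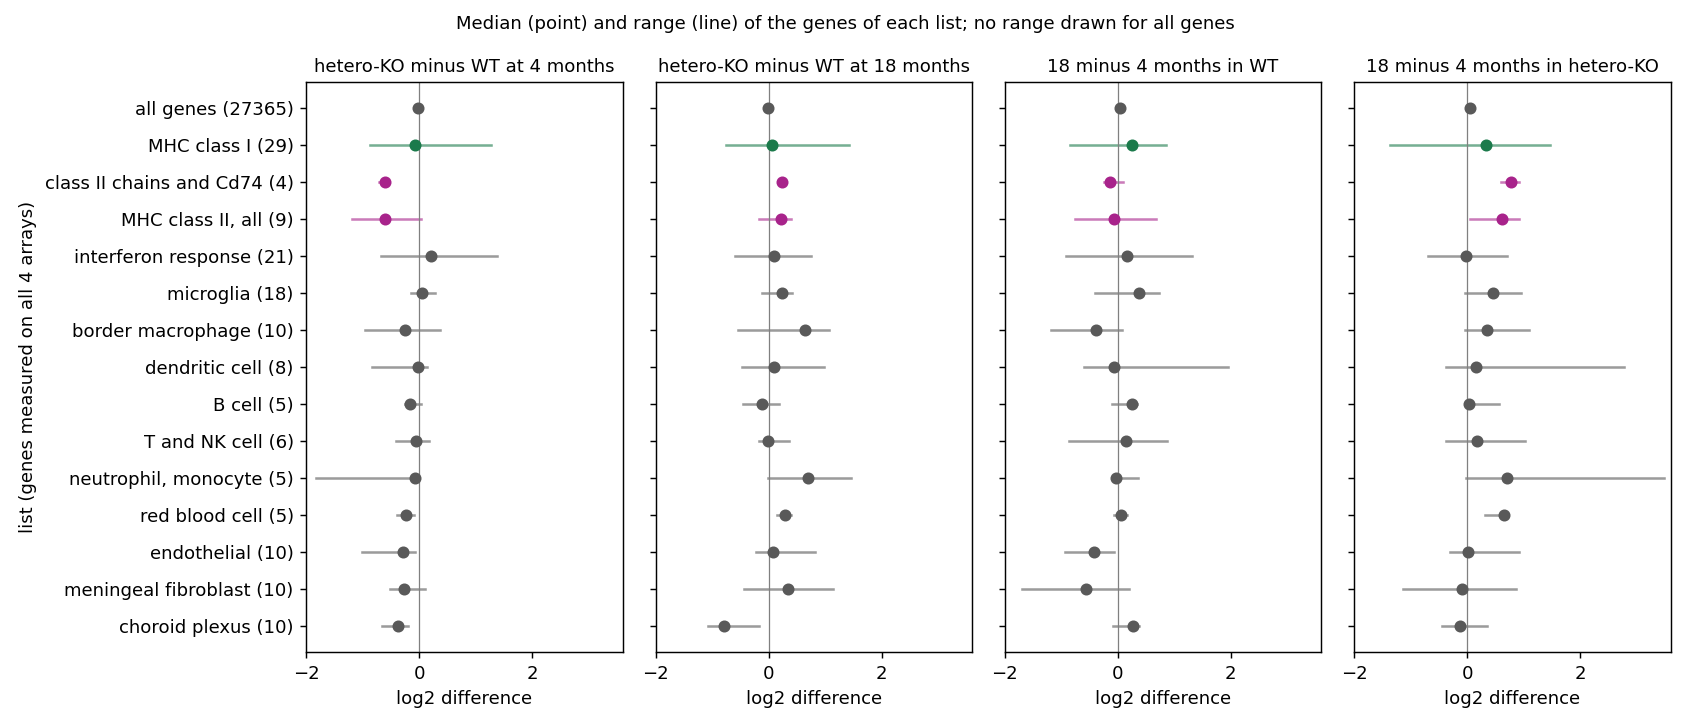
Median (point) and range (line) of the log2 differences of the MHC classes and of lists of other genes, in the 4 comparisons between single arrays, with the number of genes measured on all 4 arrays in brackets. Between genotypes the class II chains with Cd74 stand at −0.61 and 0.24, the border macrophage list at −0.26 and 0.64 and the red blood cell list at −0.24 and 0.29.

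Genes that process antigen for class II or act beside it went partly with age. Of 9 measured, 1 rose in the limma age test and 0 fell: Ctss, the cathepsin that trims the invariant chain, by 0.69 ± 0.04 (SE; limma adjusted p = 0.0211). The thiol reductase Ifi30 stood 0.24 higher with age in WT and 0.50 higher in hetero-KO, and the endopeptidase Lgmn by 0.26 and 0.22. Of the costimulatory molecules, Cd40 was lower by 0.75 in hetero-KO at 4 months and higher by 0.23 at 18 months, near the values of the class II chains, whereas Cd80 differed by −0.03 and −0.07. Cd86 was higher by 0.12 and 0.53. The ubiquitin ligase March1, which removes class II molecules from the cell surface, was lower by 0.39 and 0.25.

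The promoters of H2-Aa, H2-Eb1, H2-DMb1 and H2-Oa are shown to set a pair of chain genes beside a pair that help load and regulate class II molecules. They run from 150 to 31 bases before the start on the gene's strand, from RefSeq on build GRCm38.p6: chr17:34287854-34287973 (−) for H2-Aa, chr17:34305717-34305836 (+) for H2-Eb1, chr17:34153041-34153160 (+) for H2-DMb1 and chr17:34092229-34092348 (+) for H2-Oa. Capitals mark the same motifs as in the class I promoters.
H2-Aa: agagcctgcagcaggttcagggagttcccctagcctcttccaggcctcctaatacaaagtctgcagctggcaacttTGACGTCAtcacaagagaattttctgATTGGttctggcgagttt
H2-Eb1: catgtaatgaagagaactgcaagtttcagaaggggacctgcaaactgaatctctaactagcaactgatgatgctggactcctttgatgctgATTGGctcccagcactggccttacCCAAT
H2-DMb1: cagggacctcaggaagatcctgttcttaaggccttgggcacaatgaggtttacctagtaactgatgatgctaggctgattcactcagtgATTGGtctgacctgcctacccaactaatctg
H2-Oa: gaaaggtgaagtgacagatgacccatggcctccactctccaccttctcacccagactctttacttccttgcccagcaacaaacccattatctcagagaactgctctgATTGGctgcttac
All 4 held the reverse form ATTGG on the gene's strand, beginning 48 bases before the start in H2-Aa, 59 in H2-Eb1, 61 in H2-DMb1 and 43 in H2-Oa. In the whole windows, this orientation of CCAAT was found in 8 of 9 class II windows (8 genes) and in 22.1% of all 32851 windows. TGACG was found in 1 of the 9, that of H2-Aa, where forward and reverse matches overlap, and the interferon-stimulated core in 0 of the 9, beside 20.8% and 3.44% of all windows. The motif of the NF-kB type was found in 5 of the 9. Both pairs of genes thus carried the Y box core in the same orientation at similar distances, and these letters do not separate them.

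**Figure D5:**
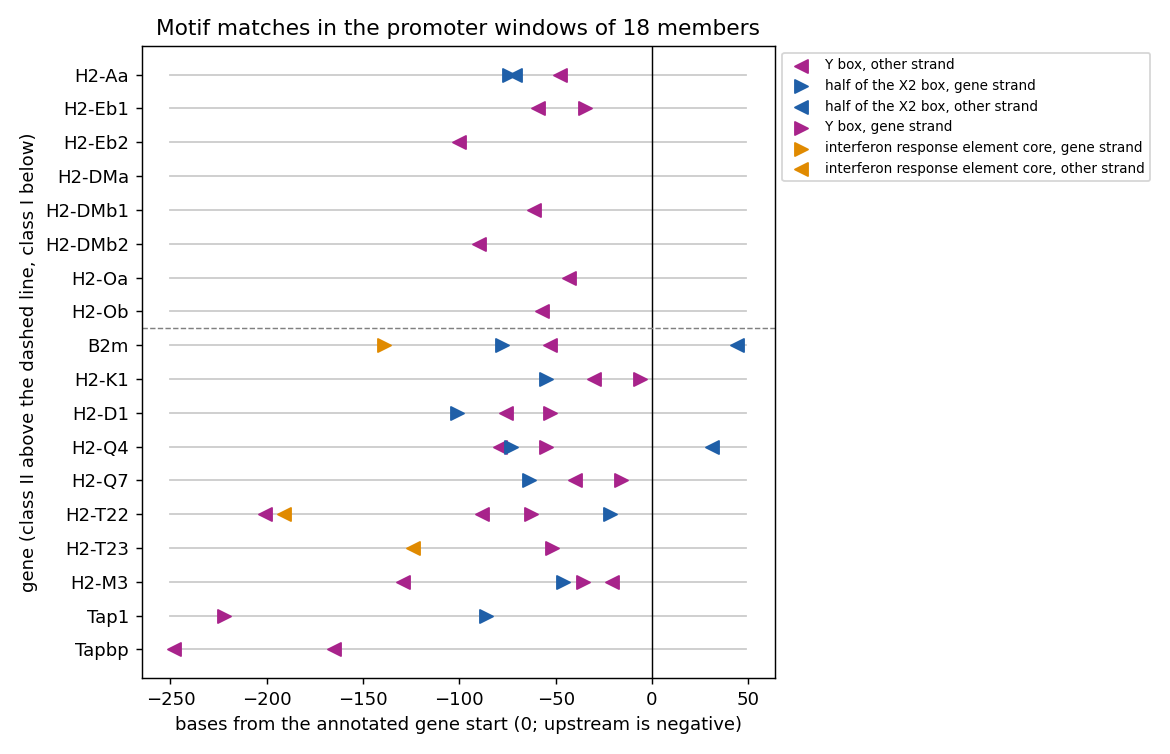
Motif matches in promoter windows of class II genes (above the dashed line) and class I genes (below), against the distance in bases from the annotated start; arrowheads to the right lie on the gene's strand and those to the left on the other strand, and 1 window is drawn per gene. The Y box core lies on the other strand at 43 to 100 bases before the start in all class II genes drawn apart from H2-DMa.

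In the region that holds most members, chr17:34066022-37618259, 34 members were measured on all 4 arrays, and 28 of them were higher with age over both genotypes, with a median of 0.22. The 161 other genes of the region had a median of 0.10, and 119 of them were higher. For all genes the median was 0.04 and 59.3% were higher. H2-Ke6, which lies there and is no antigen-presenting gene, had levels of 5.46, 5.44, 5.94 and 5.85.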

How the data were processed

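Hippocampal RNA was measured on 4 one-colour Agilent arrays of 60-base probes, 1 per group. The deposited scanner files hold spot intensity, extracted per the file headers and the submitters' processing notes with Agilent Feature Extraction 11.5.1.1, whose processed signal is background-subtracted, with surrogates for dim spots. The headers give build mm9. The authors' deposited table holds a linear ratio, whose 4-month columns equal the scanner signal over a constant; its 18-month columns match no scanner file (highest correlation of log2 values 0.985), so their origin is unknown. The table's column medians were 0.107, 0.103, 0.0998 and 0.0987. It was used as an alternative only.

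Signals were divided by each array's 75th percentile over spots that are no controls or outliers and put on the log2 scale. Spots of a probe were averaged, a probe counted as measured if 50% or more of its spots passed the scanner software's test against background, and a gene was represented by its brightest probe on average. Of the probes, 32994 matched a RefSeq accession and 1535 took its symbol. Genes measured on at least 2 arrays were tested with limma 3.58.1 (R 4.3.3; lmFit, eBayes with a variance trend) in an additive model of genotype and age, with Benjamini-Hochberg adjustment at 0.05. Nothing in the labels says more of the 3 samples in a pool than that they are independent. The p-values rest on how far the 4 arrays depart from the additive model, with the variance partly shared over genes. They hold no spread between replicates. A genotype difference that changes with age, as in the class II chains, counts as residual there. Pairs of arrays were compared by fold alone, called at 1.5. The test was checked on simulated data with 200 genes changed by a fold of 1.5, 2 or 4. It recovered 72% to 98.5% of them for genotype and 82% to 99% for age. False calls numbered 15 to 18 for genotype and 9 to 12 for age. The simulated noise was independent between arrays, with no genotype difference that changes with age.

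All members are accounted for; the other genes named come from fixed lists, and which of them, marker genes included, was chosen after their values were seen. The members, lists and tests were chosen with earlier results of these data known. Promoter windows came from RefSeq on GRCm38.p6. Alternatives were normexp background, quantile normalization, the mean of a gene's probes, the authors' table, other filters, models and folds and, added after seeing the data, leaving out probes that share sequence.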

Additional observations from a re-analysis of the deposited data

Results flagged for a closer look

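H2-M11 stood out since its genotype difference had opposite signs at the ages, past a fold of 1.5 in each: it was higher by 1.26 in hetero-KO at 4 months and differed by −0.75 at 18 months. With age it was higher by 0.65 in WT, while hetero-KO differed by −1.36. H2-Q1 stood out in the same way, with hetero-KO minus WT at −0.88 at 4 months and 1.43 at 18 months, and 18 minus 4 months at −0.84 in WT and 1.47 in hetero-KO. Both are dim, with levels of 0.0113 to 0.0590, where 0.00576 to 0.00830 was the lowest level well above background. The median of H2-Aa, H2-Ab1, H2-Eb1 and Cd74 also had opposite signs, −0.61 at 4 months and 0.24 at 18 months. With 1 array per group, none of these differences was tested.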

How the results depend on the processing

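No paired analysis was possible because each group is 1 array and the labels give no replicate numbers. The number of arrays limits all values, and dim probes are limited by background. Under other processing, the counts of members past the fold are given without the share of all genes in that setting. They show how the counts moved and not whether they exceed that share.

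With quantile normalization 53 genes rose with age and 116 fell, so that 31.4% of calls were higher against 69.4% in the main setting; class I and class II had 0 calls each. Class I members past the fold of 1.5 and lower were then 1 at 4 months and 1 with age in WT, and 3 class II members were lower at 4 months. With normexp background 1147 rose and 303 fell with age, 9 class I and 2 class II members rose, and 9 genes rose and 5 fell for genotype. Past the fold, class I then had 1 higher and 0 lower at 4 months, 0 and 0 at 18 months, 1 and 0 with age in WT and 0 and 1 with age in hetero-KO. Class II had 2 lower at 4 months, 1 higher and 0 lower with age in WT and 2 higher in hetero-KO, and a median at 4 months of −0.32.

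When a gene's probes were averaged, 4 genes rose and 10 fell with age, with 0 calls in class I and in class II, and 1 rose for genotype. Past the fold, class I then had 1 higher at 4 months, 3 higher at 18 months, and 5 higher and 1 lower with age in hetero-KO; class II had 1 higher at 18 months and 1 higher and 0 lower with age in WT, where H2-Ob turned to 0.16. Without the filter on dim probes, 0 genes passed for either factor, 2 class II members were higher at 18 months past the fold and their median at 4 months was −0.18. Without the variance trend 0 genes passed for either factor. With genes measured on all 4 arrays, 651 rose with age, and 8 rose and 2 fell for genotype. With the tested factor alone, 54 rose and 67 fell with age, 0 of them in class I or class II, and 1 rose for genotype. Without class I probes sharing sequence, 0 class I members rose with age.

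With a fold of 2, class I had 1 higher and 1 lower at 4 months, 0 lower at 18 months, 0 higher and 1 lower with age in WT and 1 and 1 in hetero-KO; class II had 1 lower at 4 months, 0 and 0 with age in WT and 0 higher in hetero-KO.

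With the authors' table, 4605 genes rose and 5298 fell with age (46.5% higher), 8 class I members rose and 6 fell, 6 class II members fell, and 1 gene rose and 7 fell for genotype. Past the fold, class I had 1 lower at 4 months, 0 and 0 at 18 months and 1 lower with age in WT; class II had 3 lower at 18 months, and 1 higher and 4 lower with age in each genotype. Medians with age were 0.019 in WT and −0.039 in hetero-KO for class I and −0.50 in both for class II, and the class II median at 18 months was −0.47. Age differences over both genotypes turned to −0.048 for B2m, −0.96 for Cd74, −1.65 for H2-Aa, −1.20 for H2-Ab1, −0.15 for H2-D1, −0.45 for H2-DMb1, −1.06 for H2-Eb1, −0.27 for H2-K1, −0.39 for H2-K2, −0.30 for H2-Oa, −0.18 for H2-Q10, −0.23 for H2-Q5, −0.32 for H2-Q7, −0.12 for Nlrc5 and −0.54 for Tap1. In WT, the age difference turned to −0.39 for H2-DMb1, −0.21 for H2-Oa and 1.22 for H2-Q1. In hetero-KO it turned to −1.12 for Cd74, −1.95 for H2-Aa, −1.28 for H2-Ab1, −0.50 for H2-DMb1, −1.04 for H2-Eb1, 0.56 for H2-M5, −0.38 for H2-Oa and −0.14 for H2-Q10, and H2-Q1 at 18 months turned to −0.28. The table's 18-month columns are of unknown origin, and the cause of the other changes was not tested.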
